A study of Mus musculus with 6 samples.

Results

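The serpin family was examined in clear cells, proton-secreting cells that line the epididymis, the duct of sperm maturation, in mice. Members were all genes of the deposited RPKM table whose symbol is Serpin followed by a clade letter from a to i and a number, Serping1 included. This gave 61 of 37578 genes: 34 of the mostly secreted clades A, C, D, E, F, G and I, 26 of the intracellular clade B, and Serpinh1 of clade H. Cells positive for EGFP had been double sorted from the caput (proximal), corpus (middle) and cauda (distal) epididymis, with 2 libraries per region and 12 pooled epididymides per library. All groups were untreated mice aged 12 weeks with the same transgene, in which the ATP6V1B1 promoter drives EGFP, and they differed in region only. The promoter is that of a proton pump subunit known from clear cells and other proton-secreting cells, so the gate rests on that reporter alone. Whether the pools of a region came from separate groups of mice is not said, so p-values rest on the spread between libraries, which may be technical.

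Serpins are proteins of a shared fold. Most inhibit serine or cysteine proteases: the protease cuts an exposed loop of the serpin, the reactive centre loop, and is trapped in a covalent complex that destroys both partners. Some members have no inhibitory activity and act as hormone carriers or chaperones. Clade B members lack a classical signal peptide and mostly act in the cytosol and nucleus, where several protect the cell from its own or incoming proteases, while most others are secreted. In the epididymis, secreted protease inhibitors are part of the fluid that surrounds maturing sperm.

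Reads assigned to genes came to 18887128 to 24700717 per library. Differences are on the log2 scale ± SE and positive where the first region named is higher. They come from edgeR's quasi-likelihood test on the deposited counts, with p-values adjusted by Benjamini-Hochberg over 15816 tested genes, and a gene was called at an adjusted p under 0.05. CPM are reads relative to the library size scaled by TMM, a factor that centres the bulk of genes, and are used within a gene. RPKM, which is per gene length, is used to compare genes. Scaling by library totals shifted the median of all genes by 0.86 (caput minus cauda), 0.27 (corpus minus cauda) and 0.59 (caput minus corpus), so changes are relative to that bulk. Under library totals, 9498 genes (60.1%) were higher and 2566 (16.2%) lower in caput than in cauda. Clear cell markers summed to 7638 to 7950 CPM in caput, 2307 to 2698 in corpus and 858.4 to 1079 in cauda. Within that sum, Car2 was highest in corpus (790.9 and 902 CPM). All 12 that were tested were higher in caput than in cauda, while Oxgr1, at 0 to 0.109 CPM, was not tested. Principal cell markers ran the other way in sum, at 7975 to 8206 CPM in caput, 74140 to 85460 in corpus and 133500 to 144400 in cauda. Most of the cauda sum was Crisp1 (76110 and 72360 CPM) and Cd52 (60990 and 53350). Of the tested members, 8 were higher and 5 lower in caput than in cauda. These sums move with region as many serpins do, their part in the results was not tested, and in bulk samples fewer cells of a type and less RNA per cell cannot be told apart.

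The serpin transcripts were mostly of clade B in caput and mostly of the secreted clades in corpus and cauda. The secreted clades summed to 107.5 and 105.7 RPKM in caput, 865.8 and 917.7 in corpus, against 5815 and 5512 in cauda. Clade B summed to 980 and 907.5 RPKM in caput, 163.8 and 184.8 in corpus, against 90.8 and 104.9 in cauda. No library of a region overlapped those of another in either sum, and the order of regions was opposite. A few genes carried this exchange. Serpinb9 made up 69.8% of the family's RPKM in caput, where Serpinb6b added 15.2%, while Serpina1f made up 81.6% of that in corpus and 89.2% in cauda, where Serpine2 added 8.7% (means of 2 libraries). Without Serpina1f and Serpine2, the secreted members summed to only 17.22 to 25.09 RPKM in the 6 libraries, with overlapping regions. As a share of all RPKM, the family came to 0.367% and 0.346% in caput, 0.161% and 0.165% in corpus, against 0.699% and 0.692% in cauda.

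**Figure D1:**
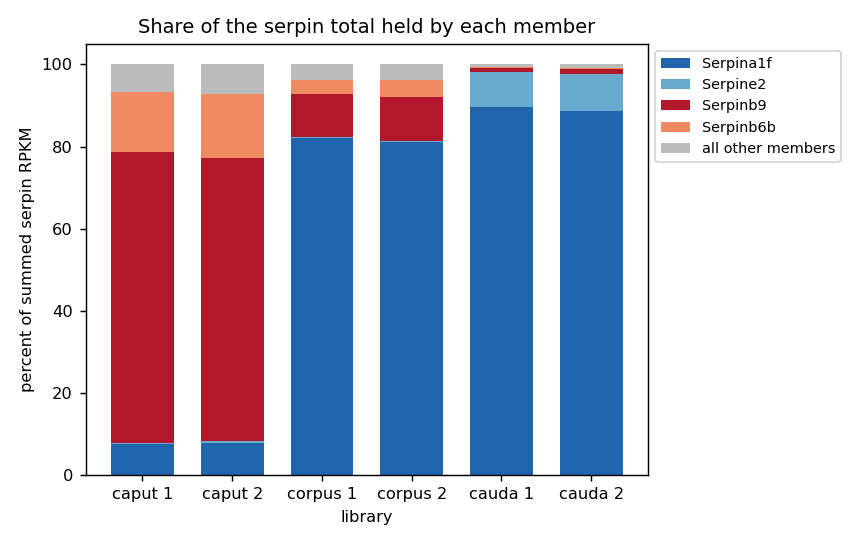
Share of the summed serpin RPKM (percent, y axis) held by Serpina1f, Serpine2, Serpinb9, Serpinb6b and all other members in each of the 6 libraries (bars). Serpinb9 and Serpinb6b fill most of the caput bars, and Serpina1f fills most of the corpus and cauda bars.

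Of the 61 members, 17 had no read in any library, 44 had at least 1, and 23 passed the filter on low counts and were tested. The 21 with reads but no test had at most 37 reads in all libraries together (Serpinb1c) and a mean of at most 0.4175 CPM in a region. Close relatives of Serpina1f and Serpinb9 were read rarely or not at all. Serpina1a and Serpina1c had no read, and Serpina1b, Serpina1d and Serpina1e had 7, 3 and 1 in all. Between 29.5% and 74.2% of the 50-base windows of these Serpina1 transcripts recur in another gene, so reads without a unique position may be missing from them, while for Serpina1f the share was 0%. Serpinb9c, Serpinb9d and Serpinb9g had no read, and Serpinb9b, Serpinb9e and Serpinb9f had 21, 1 and 12. The shared windows were 18% for Serpinb9c, 30.8% for Serpinb9d, 28.4% for Serpinb9e, 78.7% for Serpinb9f and 54.8% for Serpinb9g, so reads may be missing from these too, against 0.478% for Serpinb9b. No read in the 6 libraries allows a level of up to 0.022 CPM over all of them together (3 reads).

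Between caput and cauda, 12 of the 23 tested serpins were higher in caput and 7 lower, where 33.9% of all tested genes were higher and 33% lower. The median log2 difference was 1.46 for the serpins and 0.04 for all tested genes, and 1.52 for the serpins without Serpina5, which had no read in either region and counts as 0 in the first value. Between caput and corpus, 12 were higher and 6 lower in caput, against 33.2% and 31.8% of all genes. Between corpus and cauda, 7 were higher and 2 lower in corpus, against 17.3% and 18% of all genes. The 7 became 4 without corpus 1, without corpus 2 or without cauda 1, and the 2 became 4 without caput 1 or without caput 2. The secreted members went both ways between caput and cauda (6 of 14 higher, 5 lower), while 5 of 8 clade B genes were higher in caput and 2 were lower. Whether these 2 classes differ was not tested. By size, 87% of the tested serpins had an absolute log2 difference of at least 1 between caput and cauda, against 46.2% of all tested genes. The 87% includes Serpina3n (1.08 ± 0.83) and Serpinb8 (1.46 ± 0.74), which were not called. A gene read in 1 region only could pass the filter, which favours large differences at low counts. Members that passed the filter had to be read in some region, so these shares do not describe the family as a whole.

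When all regions were tested jointly, 20 of the 23 were called, against 75.1% of all genes. The exceptions were Serpina3n, Serpinb8 and Serpinc1, none of which reached a mean of 5 CPM. Serpinc1, antithrombin, measured 0.1634 to 0.6715 CPM in the 6 libraries and Serpina3n 0.4051 to 4.572, with overlapping regions. Serpinb8 measured 0.4103 and 1.331 CPM in caput, just above corpus (0.3917 and 0.2532) and cauda (0.407 and 0.2179). Under library totals it was called higher in caput than in cauda (2.31, adjusted p = 0.018) and in corpus (2.00, adjusted p = 0.0341). Called higher than in both other regions were 12 serpins in caput (26.8% of all genes), 2 in corpus (8.55%) and 2 in cauda (12.6%). Corpus held Serpina5 and Serpina7, and cauda held Serpina1f and Serpine2. A full stepwise fall, with caput above corpus and corpus above cauda, was called for Serpina3f, Serpina3i, Serpinb6b, Serpinb9 and Serpinf2, which are 5 of 23 beside 5.46% of all genes. The opposite full rise was called for Serpina1f alone, beside 6.87% of all genes.

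**Figure D2:**
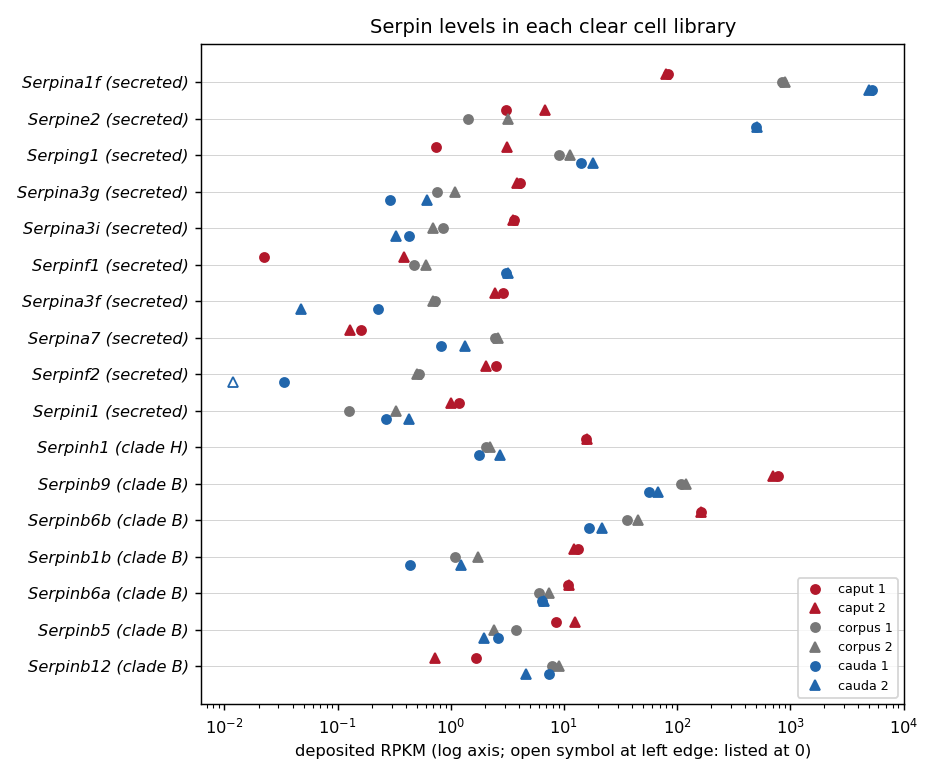
Deposited RPKM (log axis) of the 17 serpins with a mean of at least 5 CPM in a region, grouped by class, with 1 symbol per library coloured by region and an open symbol at the left edge where the value is 0. Serpina1f spans 79.23 to 5295 RPKM and Serpinb9 spans 56.58 to 781.7 RPKM, in opposite directions along the duct.

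Among the secreted members, Serpina1f (ENSMUSG00000021081), a member of the alpha-1-antitrypsin subfamily, was by far the most abundant. Its levels were 274.9 and 269.3 CPM in caput, 2970 and 3150 in corpus, against 18650 and 17550 in cauda. The regions were widely separated and the libraries of each lay close together. The log2 difference was -6.06 ± 0.10 for caput minus cauda (adjusted p = 9.59e-10), or 66.5-fold, and -3.49 ± 0.09 for caput minus corpus (adjusted p = 1.51e-08). Corpus minus cauda gave -2.56 ± 0.09 (adjusted p = 1.14e-07). By RPKM it ranked 681 and 694 among all genes in the caput libraries, 79 in each corpus library and 20 in each cauda library. Serpine2 (ENSMUSG00000026249), protease nexin-1, an inhibitor of thrombin, urokinase and tissue plasminogen activator, was a cauda gene without the graded step. It measured 11.4 and 25.25 CPM in caput, 5.484 and 12.31 in corpus, against 1936 and 1952 in cauda. Caput and corpus overlapped, and cauda stood above both. The difference was -6.74 ± 0.62 for caput minus cauda (adjusted p = 0.00124) and -7.76 ± 0.66 for corpus minus cauda (adjusted p = 0.00243), against 1.02 ± 0.59 for caput minus corpus (adjusted p = 0.205). Without caput 2 the first value was -7.41, and without corpus 2 the second was -8.47 (in both regions replicate 2 was the higher library).

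The promoters of these cauda genes are shown because the data put them together in region but their sequences differ. Each is the 250 bases before the transcript start, 5′ to 3′ on the gene's strand, from RefSeq on GRCm38.p6, with CG pairs in capitals. The build is not that of the deposited files, whose notes name mm9. An entry was found for 51 of the 61 members.
Serpina1f (chr12:103695530-103695779, minus strand): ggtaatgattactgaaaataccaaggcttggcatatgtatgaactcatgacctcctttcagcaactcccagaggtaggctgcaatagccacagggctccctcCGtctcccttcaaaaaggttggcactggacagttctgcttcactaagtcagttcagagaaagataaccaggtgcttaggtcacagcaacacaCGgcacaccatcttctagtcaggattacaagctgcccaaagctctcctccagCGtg
Serpine2 (chr1:79858666-79858915, minus strand): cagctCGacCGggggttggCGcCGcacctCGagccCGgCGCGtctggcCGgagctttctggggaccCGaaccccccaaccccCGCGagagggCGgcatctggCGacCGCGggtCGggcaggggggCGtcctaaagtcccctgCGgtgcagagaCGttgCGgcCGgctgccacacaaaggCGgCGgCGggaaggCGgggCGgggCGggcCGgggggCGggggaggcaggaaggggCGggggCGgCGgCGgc
Serpine2 held 34 CG pairs, a count that 3.53% of 32851 promoters reach, while Serpina1f held 3, which 71% reach. The median over all promoters was 6.

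The remaining secreted members were scarce, and they differed in the region where they were highest. The neighbours Serpina3f, Serpina3g, Serpina3h and Serpina3i, of the antichymotrypsin-like subfamily, were all higher in caput than in cauda and in corpus. Serpina3g, also called Spi2A and known to act inside cells despite its clade, measured 9.262 and 8.839 CPM in caput, 1.791 and 2.633 in corpus, against 0.6977 and 1.471 in cauda, with 3.05 ± 0.36 for caput minus cauda (adjusted p = 5.05e-05). Serpina3i measured 7.474 and 7.337 CPM in caput, 1.846 and 1.519 in corpus, against 0.9302 and 0.7083 in cauda (3.17 ± 0.30, adjusted p = 1.19e-05). Caput lay above both other regions for each. The step of Serpina3i from corpus to cauda (1.03 ± 0.32, adjusted p = 0.0336) was not called in any fit that left out 1 of those 4 libraries (adjusted p = 0.0622 to 0.173). Serpina3f measured 6.331 and 5.46 CPM in caput, 1.679 and 1.62 in corpus, against 0.5233 and 0.109 in cauda (4.22 ± 0.50, adjusted p = 5.4e-05). Its value was 5.7 without cauda 1 and 3.48 without cauda 2. Serpina3h, with a mean under 5 CPM, gave 3.36 ± 0.49 (adjusted p = 0.000221). Without cauda 2, Serpina3g was 3.69 and Serpina3h 4.1. These genes share sequence: 10.6% to 21.9% of the 50-base windows of their transcripts recur in another gene, so how reads were split among them is uncertain.

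Inhibitors and carriers of plasma and extracellular proteins followed several patterns. Serpinf2, alpha-2-antiplasmin, the main inhibitor of plasmin, measured 8.119 and 6.825 CPM in caput, 1.791 and 1.722 in corpus, against 0.1163 and 0 in cauda. It had 477 reads in caput and 2 in cauda, a ratio of 134 after scaling (95% exact interval 36.8 to 1110, counting error only, adjusted p = 4.27e-06). The ratio of corpus to cauda was 31.2 (8.3 to 263, adjusted p = 0.000359). Its chromosomal neighbour Serpinf1, PEDF, a serpin without inhibitory activity, ran in the opposite direction at 0.05862 and 1.024 CPM in caput, 1.287 and 1.671 in corpus, against 8.43 and 8.881 in cauda. The difference for caput minus cauda was -4.03 ± 0.87 (adjusted p = 0.00734), with -3.07 without caput 1 and -7.07 without caput 2. The last value rests on 2 reads in caput 1. With all libraries, the difference was not called without a filter on low counts (adjusted p = 0.0593). Serping1, the C1 inhibitor of the complement and contact systems, measured 1.876 and 8.088 CPM in caput, 23.89 and 30.49 in corpus, against 38.26 and 48.11 in cauda. Caput lay below both other regions (caput minus cauda -3.14 ± 0.71, adjusted p = 0.0211, and caput minus corpus -2.47 ± 0.71, adjusted p = 0.0423). Without caput 1 these became -2.41 and -1.75, and without caput 2 they became -4.52 and -3.85, all called. Without cauda 1 or cauda 2 neither was called (adjusted p = 0.0543 to 0.0742), nor was the second without corpus 1 or corpus 2 (0.0948 and 0.13). With all libraries but no filter on low counts, neither difference of Serping1 was called (adjusted p = 0.0559 and 0.101). Neither was called in the fits on the 4 compared libraries (adjusted p = 0.0664 and 0.0796). Under library totals the second was not called (-1.87, adjusted p = 0.0755). For Serpinf1, Serping1 and Serpine2, caput 2 exceeded caput 1, as it did for the stromal marker Col1a2 (0.879 and 4.98 CPM) and for the summed lymphocyte (2.491 and 25.01) and sperm markers (22.92 and 197.2). Principal cell markers differed both ways between the caput libraries, such as Lcn8 (276.6 and 926.1 CPM) and Crisp1 (4373 and 3286). The 10 stromal and muscle markers summed to 586.4 and 640.1 CPM in caput, 164.2 and 154.4 in corpus, with 438.6 and 516.3 in cauda. Most of that sum was 1 gene, Dcn (570.1 and 582.8 CPM in caput, 83.88 and 88.11 in corpus, 329.4 and 376.4 in cauda), the only one of the 10 called higher in caput than in cauda. Col1a1, Col1a2, Col3a1 and Lum were called lower, and the other 5 were not called. Col1a2 measured 20.8 and 22.1 CPM in cauda, against 5.48 and 5.52 in corpus. Their part in these results was not tested.

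Serpina7, the thyroxine-binding globulin, a hormone carrier, was highest in corpus. It measured 0.381 and 0.3071 CPM in caput, 6.043 and 6.482 in corpus, against 2.035 and 3.323 in cauda. Corpus exceeded cauda by 1.22 ± 0.32 (adjusted p = 0.0162, but 0.0752 without corpus 1, 0.102 without corpus 2 and 0.119 without cauda 1), and caput minus corpus was -4.16 ± 0.38 (adjusted p = 1.06e-05). Serpina5, the protein C inhibitor, had 20 reads in corpus, 10 in each library, and none in the other regions. Against a floor of 3 reads over a region, it was at least 6.3-fold higher in corpus than in cauda (adjusted p = 0.0153) and at least 11.2-fold higher than in caput (adjusted p = 0.00351). These bounds leave out the counting error of the 20 reads, and the 95% exact lower limits of the ratios were 4.67 and 8.32. The first was not called without cauda 1 or without cauda 2 (adjusted p = 0.118 and 0.125). Serpini1, neuroserpin, an inhibitor of tissue plasminogen activator, was higher in caput at 6.038 and 5.221 CPM, against 0.6715 and 1.772 in corpus or 1.453 and 2.288 in cauda. Its difference was 1.58 ± 0.42 for caput minus cauda (adjusted p = 0.00774) and 2.19 ± 0.43 for caput minus corpus (adjusted p = 0.00166). The first was not called without cauda 1 (adjusted p = 0.0774), and the second was 3.06 without corpus 2.

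Serpinh1, or HSP47, is the only clade H member, a collagen chaperone of the endoplasmic reticulum. It measured 36.87 and 37.98 CPM in caput, 5.036 and 5.52 in corpus, against 4.36 and 6.701 in cauda. Caput stood apart by 2.75 ± 0.19 over cauda (adjusted p = 1.28e-06) and 2.82 ± 0.19 over corpus (adjusted p = 1.34e-06), while corpus and cauda overlapped. Of 17 tested collagen synthesis genes, 8 were higher and 6 lower in caput than in cauda (10 and 3 under library totals). Over all tested genes the shares were 33.9% higher and 33% lower, or 60.1% and 16.2% under library totals, so the share lower was near that of all genes. Col18a1, a basement membrane collagen, was higher by 2.09 ± 0.18, whereas the folding enzymes P4hb (-0.77 ± 0.07) and Ppib (-1.72 ± 0.08) were lower. Under library totals P4hb was at 0.09 and not called. Of 13 heat shock genes, 9 were higher and 1 lower (12 and 0 under library totals), beside the same shares of all genes, with Hspa1a at 2.58 ± 0.15 and the small heat shock protein gene Hspb1 at 3.33 ± 0.24.

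In clade B, Serpinb9 (ENSMUSG00000045827), the inhibitor of granzyme B, dominated. It measured 2621 and 2421 CPM in caput, 380.7 and 419.7 in corpus, against 200.5 and 242.2 in cauda. Each region was separate from the next, and the steps were called throughout: 3.51 ± 0.11 for caput minus cauda (adjusted p = 1.57e-08), 2.66 ± 0.11 for caput minus corpus (adjusted p = 8.94e-08) and 0.85 ± 0.11 for corpus minus cauda (adjusted p = 0.000229). By RPKM it ranked 35 and 40 among all genes in the caput libraries and 1296 and 1095 in cauda. Serpinb6b (ENSMUSG00000042842), an inhibitor of granzyme A, showed the same order at 359.6 and 363.5 CPM in caput, 83.65 and 104.9 in corpus, against 39.01 and 50.18 in cauda. Its differences were 3.02 ± 0.15 (adjusted p = 5.45e-07), 1.94 ± 0.14 (adjusted p = 6.53e-06) and 1.08 ± 0.14 (adjusted p = 0.000632) in the same order of comparisons. The proteases themselves were hardly read. Gzma had 0 reads in the 6 libraries, which allows up to 0.022 CPM over all of them together, and Gzmb had 2, both in cauda 2. The lymphocyte markers summed to 2.491 and 25.01 CPM in caput, 24.9 and 36.56 in corpus, with 4.244 and 20.98 in cauda. The 12 tested clear cell markers had median differences of 3.5, 2.39 and 1.02, in the order of comparisons given for Serpinb9. Car2 alone of them was lower in caput than in corpus (-1.50 ± 0.12). The part of lymphocytes, or of the share of clear cells, in the levels of Serpinb9 and Serpinb6b was not tested. Both granzymes are outside the naming rule and are given as the known targets of these inhibitors.

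The promoters of these caput genes are shown for comparison with the cauda pair, in the same form.
Serpinb9 (chr13:33004291-33004540, plus strand): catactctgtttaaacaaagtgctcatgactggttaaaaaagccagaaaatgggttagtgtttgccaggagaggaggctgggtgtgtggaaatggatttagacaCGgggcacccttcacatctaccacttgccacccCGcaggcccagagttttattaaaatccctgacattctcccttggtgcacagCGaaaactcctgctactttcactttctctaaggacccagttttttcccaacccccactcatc
Serpinb6b (chr13:32965011-32965260, plus strand): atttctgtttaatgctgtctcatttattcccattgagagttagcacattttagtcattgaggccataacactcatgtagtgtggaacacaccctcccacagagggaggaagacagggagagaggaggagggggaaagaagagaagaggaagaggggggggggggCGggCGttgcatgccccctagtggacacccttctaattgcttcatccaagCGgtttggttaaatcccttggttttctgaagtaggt
Each held 3 CG pairs, as Serpina1f did. On either strand of the 4 sequences shown there was no match to TATAAA (in 12.4% of all promoters of that length), AGAACA, a half-site of steroid receptors (16.1%), TGTTTAC, a forkhead motif (3.17%), or GAANNTTC, a heat shock element unit (6.69%). The absence of a match says only that these letters are not in the window.

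The other clade B members were scarcer and did not all follow Serpinb9. Serpinb6a, the ubiquitous paralog that inhibits cathepsin G, was higher in caput by a small margin, with 61.11 and 63.75 CPM in caput, 35.81 and 44.31 in corpus, against 37.85 and 39.45 in cauda (0.69 ± 0.11 for caput minus cauda, adjusted p = 0.000449, and 0.05 ± 0.11 for corpus minus cauda, adjusted p = 0.763). Serpinb1b, of the elastase inhibitor group, measured 21.57 and 20.44 CPM in caput, 1.846 and 2.988 in corpus, against 0.7558 and 2.125 in cauda. It was higher in caput by 3.85 ± 0.39 over cauda (adjusted p = 5.05e-05), with 4.79 without cauda 2. Its paralog Serpinb1a went the opposite way at low counts, with 3 reads in caput, 37 in corpus, 29 in cauda. The ratio of cauda to caput was 17.2 (95% exact interval 5.34 to 88.5, adjusted p = 0.00349) and of corpus to caput 20.8 (6.58 to 105, adjusted p = 0.00231), and all 3 caput reads were in caput 2. The first was -2.92 (caput minus cauda, log2) without caput 1, and no fold is read without caput 2, which leaves caput at 0. Serpinb1a is known from neutrophils, whose markers summed to 0.7327 and 0.3413 CPM in caput, 2.182 and 2.937 in corpus, with 54.77 and 32.85 in cauda. The cauda sum was almost all S100a8 (51.74 and 29.69 CPM). S100a9 measured 1.163 and 1.362 CPM in cauda. Mmp8 measured 2.126 and 2.937 CPM in corpus, against 1.802 and 1.798 in cauda, and was not called between them (0.49 ± 0.43, adjusted p = 0.421). Csf3r and Ly6g were at or near 0, and the other 2 of the 7 markers (Retnlg and Cxcr2) were at 0 in every library. Their part in the result was not tested. Serpinb5, maspin, a member without inhibitory activity known from epithelia, measured 22.71 and 34.02 CPM in caput, 10.74 and 6.786 in corpus, against 7.442 and 5.557 in cauda (2.13 ± 0.29 for caput minus cauda, adjusted p = 0.000392). Maspin is known from basal cells of many epithelia. The 10 basal cell markers summed to 345.1 and 403.6 CPM in caput, 173.6 and 154.4 in corpus, against 116.7 and 92.13 in cauda. Of them, 9 were called higher and 0 lower in caput than in cauda. Between caput and corpus, 7 were higher in caput and 1 lower, Itga6 (14.16 and 17.37 CPM in caput, 40.62 and 46.84 in corpus). The part of basal cells in the result was not tested. Its neighbour Serpinb12, an inhibitor of trypsin-like proteases, ran the other way at 4.015 and 1.775 CPM in caput, 19.92 and 22.69 in corpus, against 18.49 and 11.66 in cauda. Caput minus cauda was -2.36 ± 0.40 (adjusted p = 0.00201) and caput minus corpus -2.86 ± 0.39 (adjusted p = 0.000851), or -3.08 and -3.58 without caput 1.

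**Figure D3:**
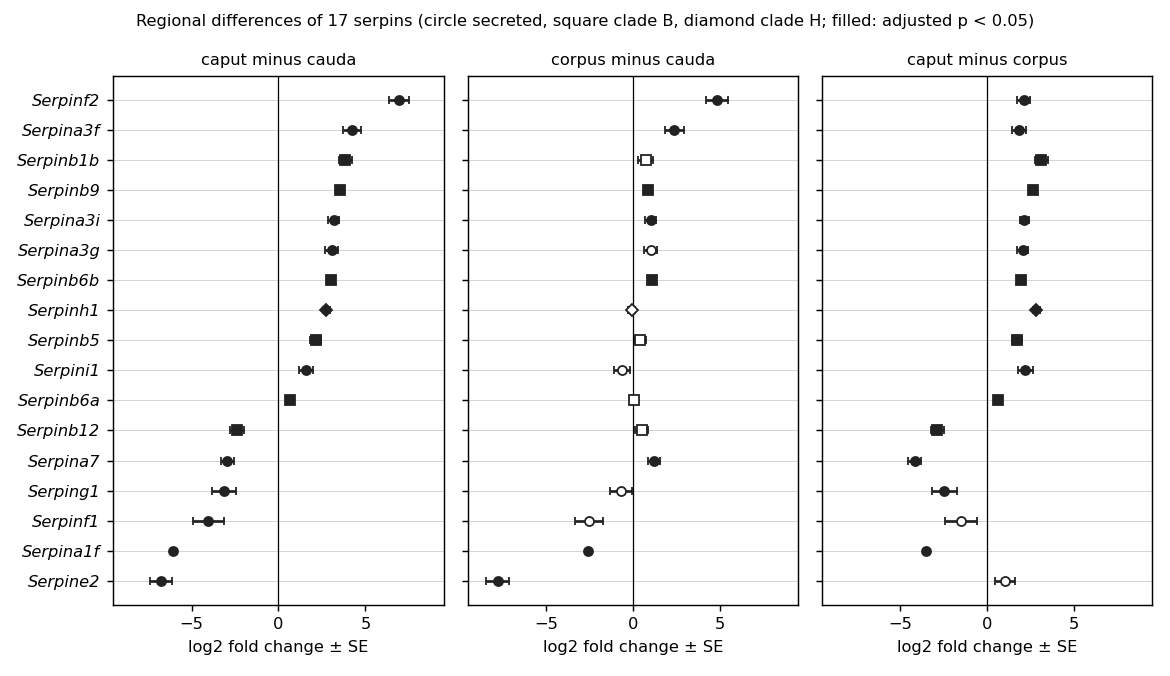
Log2 difference ± SE (x axis) of the 17 serpins with a mean of at least 5 CPM in a region, in 3 panels for caput minus cauda, corpus minus cauda and caput minus corpus, with filled symbols where called (Serpinf2 against cauda is a fitted value resting on 2 cauda reads). The secreted members lie on both sides of 0 for caput minus cauda, with Serpina1f at -6.06 and Serpina3i at 3.17, and most clade B members lie above 0.

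Many serpins lie in clusters, and the clusters were only partly uniform in direction. On chromosome 12 the consecutive genes Serpina3f, Serpina3g, Serpina3h and Serpina3i were all higher in caput than in cauda, and Serpina1f of the same cluster was lower. On chromosome 13 Serpinb6a, Serpinb6b, Serpinb9 and Serpinb1b were higher and Serpinb1a lower. The adjacent genes Serpinb5 and Serpinb12 on chromosome 1 went opposite ways, as did the adjacent Serpinf1 and Serpinf2 on chromosome 11. Reads were counted without regard to strand, and ambiguous ones, as in overlapping genes, were left out, so the levels of such genes may be too low.

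**Figure D4:**
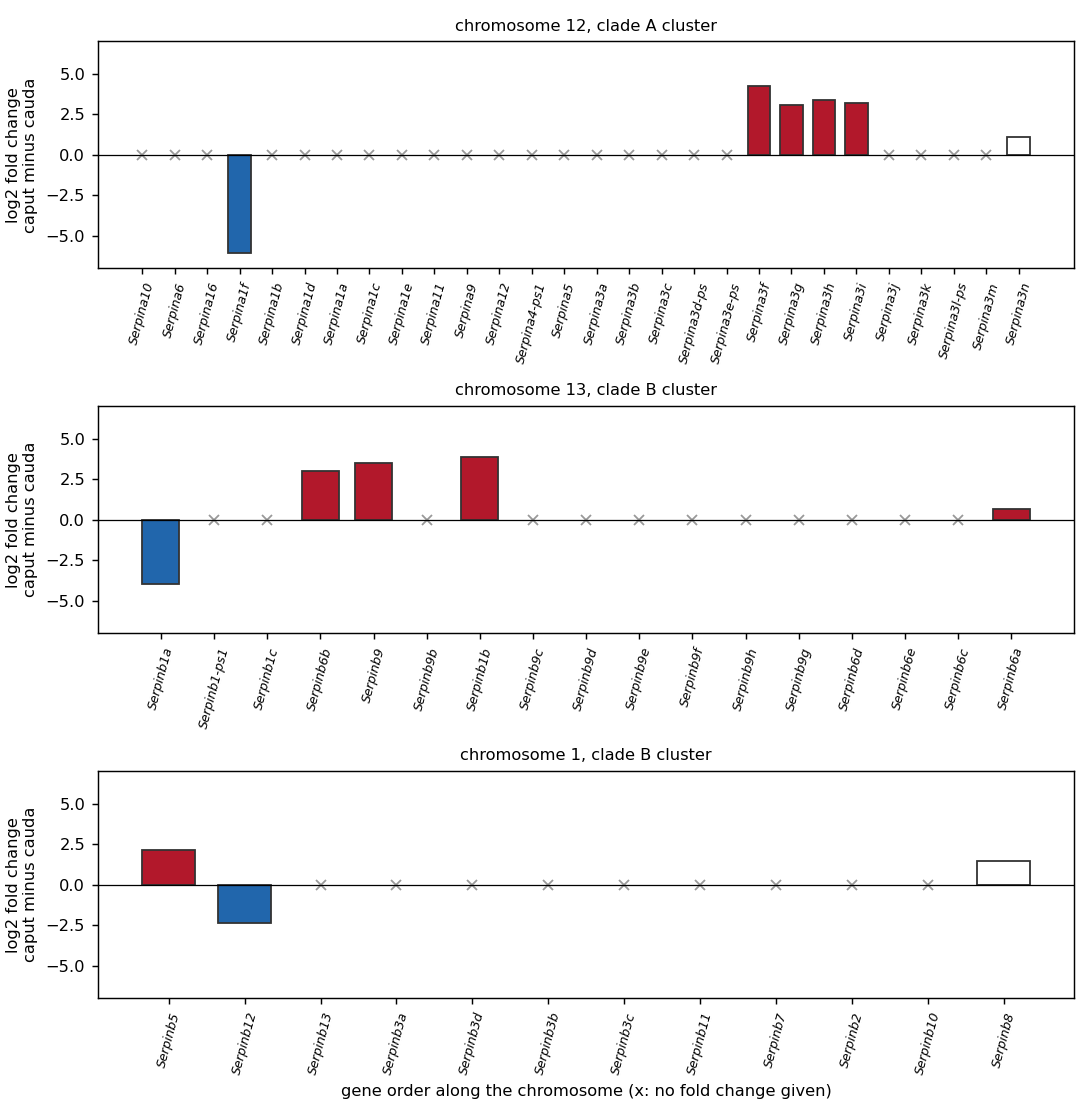
Log2 difference for caput minus cauda of the serpins in each chromosomal cluster, in the order of the RefSeq annotation (positions are ranks, not distances), with filled bars where called and a cross where no value is given. The Serpinb1a bar is a fitted value resting on 3 caput reads. The 4 Serpina3 genes on chromosome 12 are all above 0, while Serpinb5 (2.13) and Serpinb12 (-2.36) lie on opposite sides.

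Lists of protease targets and receptors were examined beside the inhibitors. Of 18 tested serine protease targets, 6 were higher and 5 lower in caput than in cauda, and 12 and 2 under library totals. Beside all tested genes, with 33.9% higher and 33% lower (60.1% and 16.2% under library totals), the share higher was near the background in both. Prss23, a secreted serine protease, was higher in caput by 5.95 ± 0.11 (adjusted p = 1.18e-09) and St14, matriptase, by 1.68 ± 0.11 (adjusted p = 1.08e-06), while Prss8, prostasin, was lower (-0.42 ± 0.09, adjusted p = 0.00257) but higher under library totals (0.44, adjusted p = 0.00147). The urokinase gene Plau, a target of Serpine2 outside the naming rule, was lower in caput (-2.68 ± 0.42) and Plat, the tissue plasminogen activator, was higher (1.30 ± 0.34). The plasmin precursor Plg, the target of Serpinf2, and the thrombin precursor F2 had 7 reads each in all libraries. Of 11 cysteine protease targets, 6 were higher and 3 lower (7 and 3 under library totals), beside the same shares of all genes, with the lysosomal cathepsin genes Ctsz (2.27 ± 0.13) and Ctsl (1.01 ± 0.08) higher and Ctsc (-1.51 ± 0.14) and Ctsh (-1.43 ± 0.13) lower. Of 17 receptors and cofactors, 10 were higher and 3 lower, and 11 and 2 under library totals, where 60.1% and 16.2% of all genes were. The heparan sulphate proteoglycan genes Sdc1 (3.45 ± 0.10) and Sdc4 (3.63 ± 0.10) were higher in caput. Lrp2, megalin, an endocytic receptor that takes up serpin-protease complexes, was lower (-4.14 ± 0.11, adjusted p = 5.09e-09), as was its chaperone gene Lrpap1 (-2.64 ± 0.09, adjusted p = 1.73e-08).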

How the data were processed

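RNA from 6 libraries of sorted clear cells was sequenced. The authors deposited a gene count file per library and 1 table of RPKM values, with a gene length column (unit other, bases per gene). The deposited counts are whole numbers made without regard to strand, per the file names. The submitters' processing notes name STAR, HTSeq, edgeR and mm9, without versions. The deposited RPKM values equal the counts over gene length and a scaled library size, with scaling factors found here to be 1.329 and 1.387 (caput), 0.957 and 0.925 (corpus), and 0.774 and 0.792 (cauda). Reads without a unique position, 33.11% to 38.59% of records, those in no feature (6.67% to 9.48%) and ambiguous ones (1.39% to 1.83%) were left out, which lowers genes with near-identical copies.

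Counts entered edgeR 4.0.16 (R 4.3.3) as deposited: filterByExpr by region, TMM scaling, robust quasi-likelihood F tests, two-sided, on all 6 libraries, region only (3 residual degrees of freedom). SE was derived as the absolute log2 difference over the square root of F and is approximate. Replicates differed beyond sampling noise (chi-square per degree of freedom 9.569 to 17.18), and each was kept as a sample. Members with a mean of at least 5 CPM in a region were named with every library's value, other members if called, and from each partner list up to 4 called genes with at least 50 CPM and the smallest adjusted p. Genes said to be outside this rule, with the cell type markers, were chosen after their values were seen. The members and lists were chosen with earlier results of these data known. The steps were tested on simulated counts. Shared windows were counted on GENCODE M21 transcripts. Intervals and floors cover counting error only. Alternatives were library totals, DESeq2 1.42.0 size factors and test, filters, length offsets, limma 3.58.1 on log2(RPKM + 0.1 or 1), a replicate block, fits on the 4 compared libraries, and leaving out each library.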

Additional observations from a re-analysis of the deposited data

Results flagged for a closer look

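Serpin-related genes outside the symbol rule also carried reads. Serpina3e-ps, a pseudogene directly before Serpina3f on chromosome 12, had 477 reads in the 6 libraries, above the limit that a count of 0 allows. It measured 7.65 and 6.313 CPM in caput, 0.5595 and 1.013 in corpus, against 0 and 0.05448 in cauda, the order of regions seen for Serpina3f. Agt, angiotensinogen, a serpin by structure whose symbol does not follow the family's pattern, had 770 reads. It measured 3.517 and 2.764 CPM in caput, 12.98 and 10.48 in corpus, against 4.593 and 2.779 in cauda, and was higher in corpus than in cauda by 1.67 ± 0.28 (adjusted p = 0.00141), while caput minus cauda gave -0.22 ± 0.29 (adjusted p = 0.508). With 2 libraries per region, no outlying library could be tested for.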

How the results depend on the processing

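Of 46 called comparisons of named serpins, 39 kept their call and direction in every alternative that gave a value. The 7 exceptions are Serpina3i, Serpina7 and Serpina5 for corpus against cauda, Serpinf1 and Serpini1 for caput against cauda, and Serping1 for both comparisons with caput. The count of serpins higher in corpus than in cauda was 4 to 7, and of those lower 2 to 4, when 1 library was left out. It was 4 for those lower in the fit on the 4 compared libraries. Leaving out either caput library also brought the call of Serping1 (adjusted p = 0.00687 and 0.0065) and Serpinf1 (2.6e-05 and 2.54e-05) as lower in corpus than in cauda. The uncalled difference of Serpinh1 for corpus minus cauda turned to 0.19 under library totals, and ran from -0.34 to 0.27 with 1 library left out (0.01 without corpus 1). That of Serpinb6a ran from -0.11 (without corpus 2) to 0.21. By share of reads in place of RPKM, which weighs long genes more, Serpina1f held 8.06% in caput and 82.9% in corpus, Serpine2 9.52% in cauda, Serpinb9 74.6% in caput and 10.8% in corpus, and Serpinb6b 10.7%, 2.55% and 0.219% in caput, corpus and cauda. Library totals, which shift all genes, gave for the serine protease targets 12 higher and 2 lower in caput than in cauda, 1 lower in corpus than in cauda and 4 lower in caput than in corpus. For the collagen synthesis genes they gave 3, 3 and 1 lower in the same comparisons, and 0 heat shock genes lower in caput than in cauda. Apart from the values above, the causes were not tested. Low counts limit Serpina5, Serpinb1a, Serpinf1, Serpinf2 and the members that were not tested.

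The replicate numbers are shared between regions but pair nothing that the labels name, and deviations of same-numbered libraries correlated at 0.134 to 0.187 over genes. A fit with a replicate block called 12 serpins higher and 7 lower in caput than in cauda, 8 and 3 for corpus against cauda, and 13 and 6 for caput against corpus. It lost no call of a named serpin and added Serpina3g (1.03, adjusted p = 0.0451) and Serpinf1 (-2.6, adjusted p = 0.0296) for corpus against cauda.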
